A study of Mus musculus with 3 samples.

Results

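Rock1, the gene of the protein kinase ROCK1, was described in RNA of mouse 2-cell embryos across 3 litters. It was chosen from measured values, as a gene whose span held a run of 8 neighbouring 10 kb windows with at least 1 alignment per kb per 1000000 nuclear alignments (called density here) in every litter. The span was chr18:10064000-10182000 on mm9, transcribed from the minus strand, with 50 kb taken on each side as flanks. It touched 13 of 272592 nuclear windows and is the only gene described. The level and the run of windows are therefore a description, and nothing is concluded from them.

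Each library was a litter of 2-cell embryos collected at embryonic day 1.5, and all 3 libraries formed 1 group, so no condition was compared. The mothers, of mixed strain, were LSD1 FL/FL (both copies of a histone demethylase gene floxed) and negative for ZP3::Cre, a transgene expressing Cre in the oocyte. One label gives wild type CB6 males as fathers, another C57/Bl6J males. RNA was amplified with SPIA, an isothermal method, and the deposited read coverage was resolved into ungapped alignments of 72 bases. Nuclear alignments numbered 34014013, 32431630 and 40474940 in litters 1 to 3. The number of embryos in a litter is not given in the labels, and markers of other cells were not analysed here.

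ROCK1 is a serine/threonine kinase. It phosphorylates regulators of myosin and LIM kinases, and through them controls contraction and the actin cytoskeleton. Its amino-terminal end holds the kinase domain, its middle is a long coiled coil, and its carboxy-terminal end holds a pleckstrin homology region. The embryo at this stage holds RNA stored by the oocyte and the first RNA made from its own genome, and these sources cannot be told apart here.

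Rock1 was present in every litter, with 23302, 16371 and 32812 alignments in litters 1 to 3. The density over the span was 5.81, 4.28 and 6.87 in this order, with a mean of 5.65 ± 1.30 (SD, n = 3). Litter 2 was lowest and litter 3 highest. Rock1 took 0.0685%, 0.0505% and 0.0811% of the nuclear alignments. The coefficient of variation of its density was 23.1%. Over the 8 windows of the run the median coefficient of variation was 26.8%, and over 4025 nuclear windows of like alignment number (between 0.5 and 2 times the median of the run) it was 30.8%.

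Of the 13 windows over the gene, 8 were at a density of 1 or more in all litters, against 3.16% of all nuclear windows. That count is what the gene was chosen by. With the bar at 0.5 it was again 8 windows, against 4.74% of all, and at 2 it was 6, against 1.93%. The window from 10.10 to 10.11 Mb was highest, at 27.0, 22.6 and 24.6 in litters 1 to 3, and it varied least between litters among the 13. The lowest window of the run, from 10.11 to 10.12 Mb, held 1.46, 1.15 and 2.02. The next window outside the run on the side of the gene's 5′ end, from 10.14 to 10.15 Mb, held 0.526, 0.163 and 1.64, so litter 3 passed 1 there and the other litters did not. The windows from 10.15 to 10.18 Mb, which hold exon 2 and most of intron 1, stayed under 1 in every litter. The window from 10.18 to 10.19 Mb, which holds exon 1, reached 1.09 in litter 1 and 1.46 in litter 3 but 0.160 in litter 2.

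**Figure D1:**
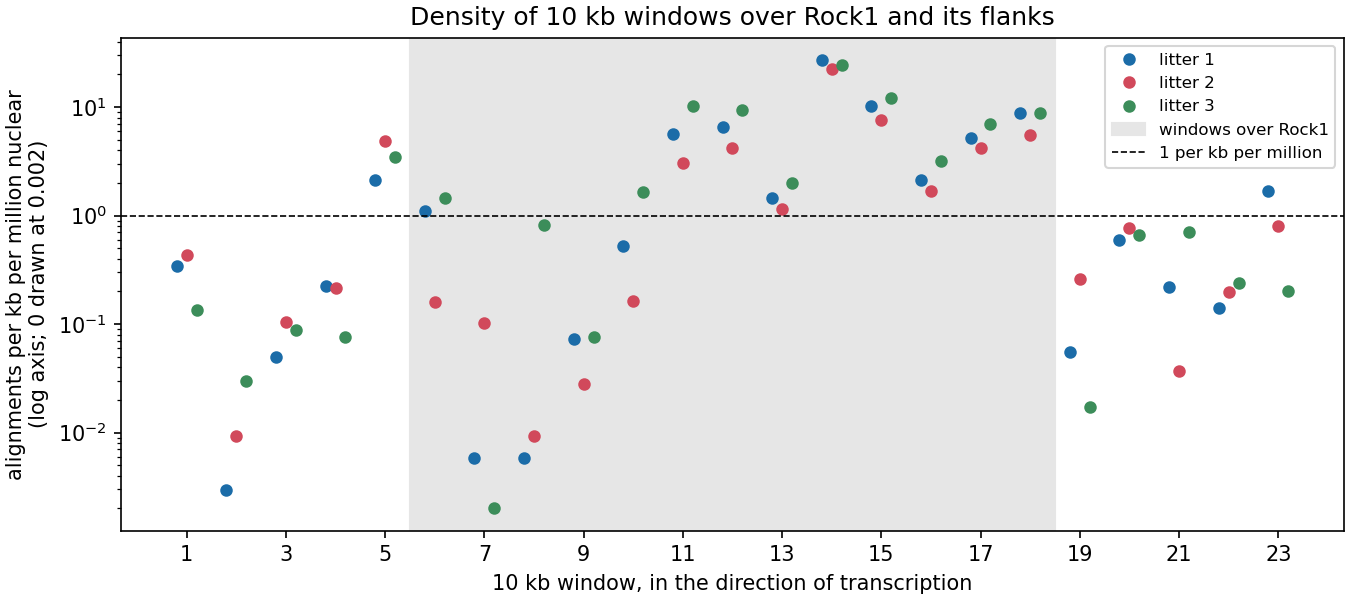
Density of the 10 kb windows over Rock1 (shaded) and its flanks, in alignments per kb per 1000000 nuclear alignments on a log axis, ordered in the direction of transcription, with 1 point for each litter. The run of 8 windows above the dashed line at 1 ends at the 3′ end of the gene, and the windows between exon 1 and that run lie mostly under it.

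The run of windows did not come from coverage along the length of the gene. Only 9.15%, 12.8% and 9.18% of the bases of the span carried any coverage in litters 1 to 3, and that coverage stood in short, sharp blocks. A block was defined as at least 72 bases where coverage was at least 5 times the mean of the span in every litter, with gaps of up to 20 bases joined. There were 20 such blocks. They made up 2.62% of the span and held 88.5%, 87.5% and 86.1% of its aligned bases, a mean of 87.3% ± 1.22 (SD, n = 3). Their median length was 142 bases. Outside them the density by aligned bases was 0.686, 0.550 and 0.982 in litters 1 to 3, a mean of 0.739 ± 0.221 (SD, n = 3). The density of the flanks was 0.503, 0.649 and 0.580. The bases outside blocks still hold the exons too weak to form a block. The name under which the gene was proposed, transcribed along its length, is therefore not what the coverage shows: the signal is that of separate exons.

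The blocks were set beside the exons of the full-length annotated transcript, using only the lengths of the exons and the distances between them, since the annotation is of another build. This chain of 33 exons was placed at each of 90654386 positions on the chromosome. At the best placement all 29 exons of 72 bases or more held a whole alignment in every litter. This held at 18 placements within 17 bases of each other, and of these the one with the most alignments wholly in exons was used, with 20738, 14369 and 28329. Exon edges are therefore placed only to within a few bases. No placement over 1000 bases away reached more than 11. Every one of the 20 blocks fell in a single exon, and 19 of the 33 exons held a block. Leaving out the last exon, 26 of 36 block edges lay within 10 bases of an exon edge, the other 10 lay farther inside, and none lay over 6 bases outside. Exon numbers used from here on rest on this placement and count from the 5′ end.

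The block with the highest coverage was chr18:10104072-10104320, which is exon 16 with 2 more bases on one side. Its mean coverage was 1799, 1333 and 1770 reads in litters 1 to 3, or 45.9 ± 6.18 per 1000000 nuclear alignments (SD, n = 3). The longest block, chr18:10064797-10065305, has 509 bases and lies in exon 33, which is almost entirely untranslated. Its coverage was 254, 112 and 329 reads, so litter 2 was lowest. It is also the outermost block at the 3′ end. The outermost block towards the 5′ end was chr18:10136124-10136218 in exon 5, with 193, 71.4 and 537 reads. The longest stretch without a block ran from there to the 5′ end of the span, over 45.8 kb, and held 539, 183 and 1366 alignments, those of exons 1 to 4 among them. The next longest, 10.3 kb between exons 14 and 12, held 13, 17 and 2.

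**Figure D2:**
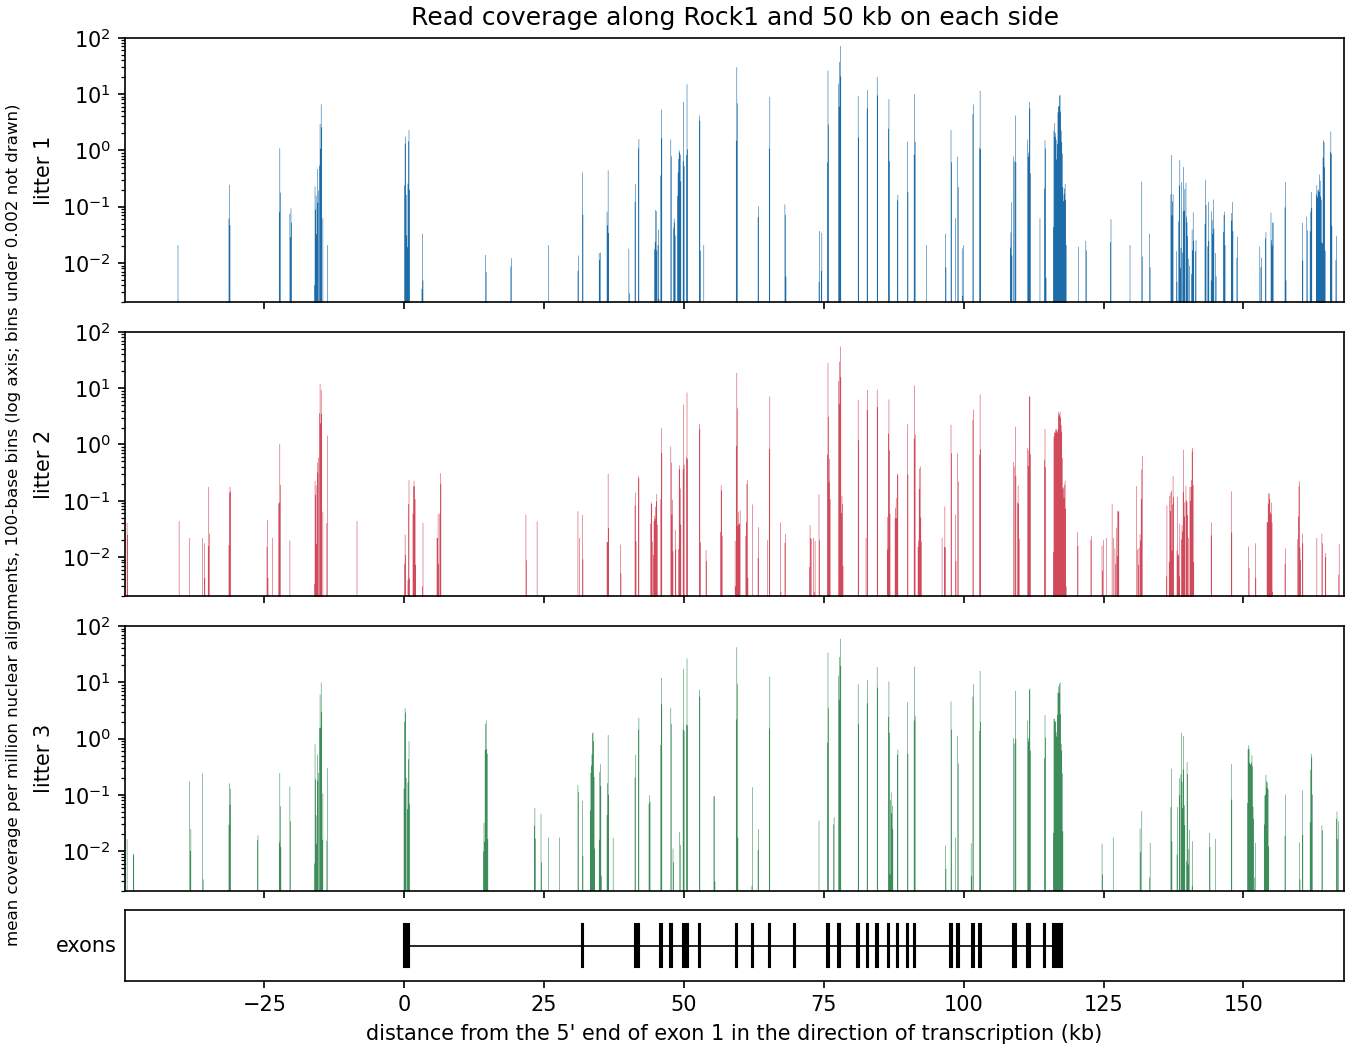
Mean coverage per 1000000 nuclear alignments in 100-base bins on a log axis, for each litter, against the distance in kb from the 5′ end of exon 1, with the placed exons as black boxes below. Spikes stand over the exons and the stretches between them are mostly empty, while a few isolated spikes in the introns and flanks appear in 1 litter and not in the others.

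Exonic origin held in every litter. Exons are 5.46% of the span, yet they held 98.1%, 96.8% and 96.9% of its aligned bases, a mean of 97.3% ± 0.692 (SD, n = 3). Of the exon bases, 97.4%, 91.8% and 95.8% were covered. Alignments lying wholly in an exon made up 89.0%, 87.8% and 86.3% of all alignments of the span, and those partly in an exon made up 9.55%, 9.54% and 11.2%. The density of exons by aligned bases was 105, 76.4 and 123 in litters 1 to 3.

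The introns, 111 kb in 32 pieces, were close to empty. Alignments wholly inside an intron numbered 311, 416 and 821, which is 1.33%, 2.54% and 2.50% of the alignments of the span. The 95% Wilson intervals were 1.20% to 1.49%, 2.31% to 2.79% and 2.34% to 2.68%, and they speak of counting error alone, since copies made in amplification cannot be recognised. The density of the introns was 0.0822, 0.115 and 0.182, a mean of 0.127 ± 0.0510 (SD, n = 3). The flanks stood above that in every litter, at 0.503, 0.649 and 0.580. By aligned bases, the exon density was 878, 525 and 553 times that of the rest of the span, a mean of 652 ± 196 (SD, n = 3). No intron was at 1 or more in all litters, and 11 of the 32 held no alignment in any litter.

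Much of the intron signal stood in a few islands that differed between litters. Islands, defined as joined alignments with at least 20 members, held 74.3%, 51.2% and 88.7% of the intron alignments in litters 1 to 3, so litter 2 had nearly as much outside them. Intron 6 held 216 of the intron alignments of litter 1, 56 of litter 2 and 3 of litter 3. Intron 2 held 32, 18 and 403 in litters 1 to 3. Intron 1, at 30.9 kb the longest, held 359 in litter 3, 77 in litter 2 and 6 in litter 1. Each litter thus had another leading intron, with 69.5% of its intron alignments in intron 6 in litter 1, 18.5% in intron 1 in litter 2 and 49.1% in intron 2 in litter 3. There were 12 intron islands of 152 to 770 bases, of which 8 overlapped none in another litter and none were found in all 3. The largest was chr18:10167218-10167762 in intron 1, with 330 alignments at 191 start positions in litter 3. The next, chr18:10148123-10148892 in intron 2, held 274 at 202 start positions in the same litter. In litter 1 the leading island was chr18:10132657-10133346 in intron 6, with 207 alignments at 157 start positions.

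**Figure D3:**
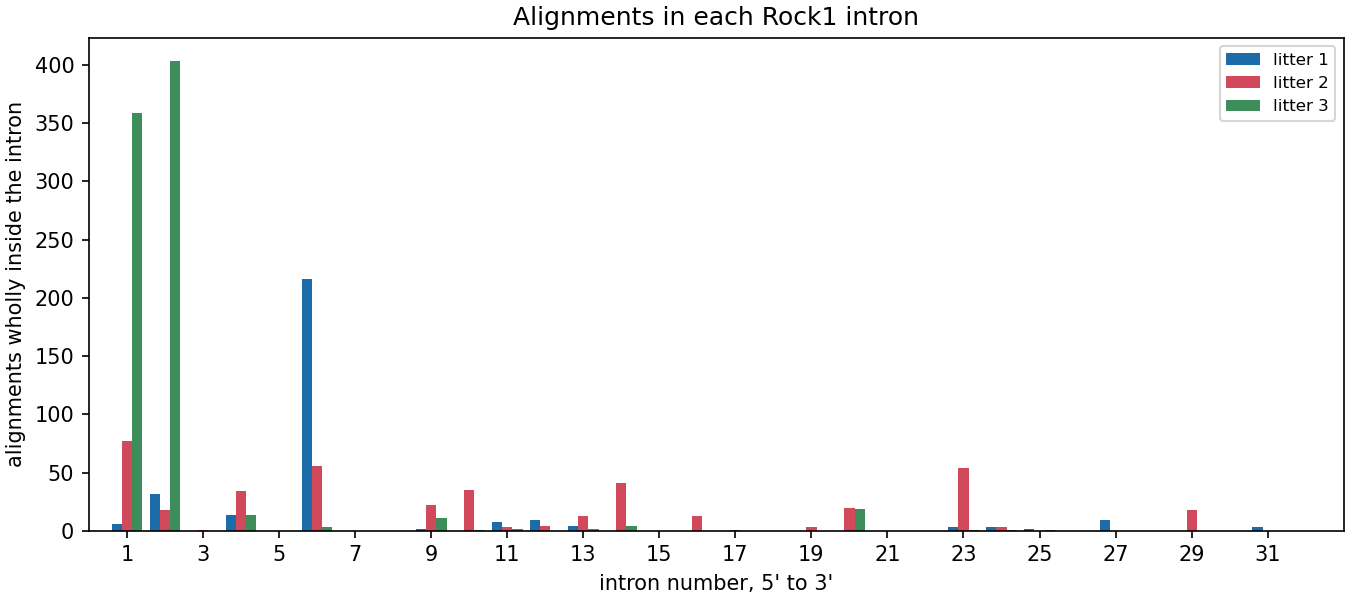
Number of alignments wholly inside each of the 32 Rock1 introns, numbered from the 5′ end, with 1 bar for each litter. Litter 1 has its highest bar in intron 6, litter 2 in intron 1 and litter 3 in intron 2, with smaller bars of litter 2 in several other introns.

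The annotation has 8 Rock1 transcript models, of which 5 are labelled as retained introns, RNAs in which an intron has stayed unspliced. The intron bases of those 5 models add up to 11.6 kb. Only 2, 6 and 1 alignments lay there in litters 1 to 3. Signal from these models was thus a small part of the intron signal in each litter. A pseudogene, Gm2531, and a small nuclear RNA gene, Gm26244, are annotated inside Rock1. Where the placement puts Gm2531, 29, 17 and 84 alignments touched it, and 1, 3 and 15 touched Gm26244. The deposited coverage carries no strand, so these cannot be told apart from Rock1 introns.

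Exons were compared per place where an alignment can lie, because a 72-base ungapped alignment cannot start in the last 71 bases of an exon. Start density is the number of alignments wholly in an exon per 1000 possible start positions and per 1000000 nuclear alignments. All 29 measurable exons had alignments in every litter. The other 4, exons 11, 13, 21 and 28, have 61, 49, 70 and 71 bases, too few for a whole alignment. Exon 28 still had a mean coverage of 65.8, 39.8 and 102 reads from alignments passing its edges, and exon 13 had 0 in each litter. No whole ungapped alignment can lie in exon 13, so that 0 does not show its absence from the RNA.

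Start density was low at the 5′ end, highest in the middle of the transcript and lower again beyond it. Exon 15 had the highest mean, at 1091, 946 and 905 in litters 1 to 3. Exon 16, the source of 6029, 4477 and 5910 alignments, followed at 1007, 784 and 830. These exons hold codons 516 to 629 of 1354, in the coiled-coil region of the protein. Exon 14 stood at 554, 606 and 712, and exon 12 at 572, 449 and 810. Exon 10 had 547, 336 and 758. From exon 10 to exon 16 the measurable exons thus all had means above 500, and no other exon did.

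Exon 17, next to the peak, stood at 353, 229 and 326, and its litters did not overlap those of exon 16. Exon 18 had 269, 209 and 228. Exon 19 had 438, 206 and 397, above exon 18 in litters 1 and 3 but not in litter 2. Exons 20 to 32 together had 116, 102 and 172. They encode the end of the coiled coil and the carboxy-terminal regions. Within them exon 25 was low at 35.9, 36.0 and 61.8, with 22, 21 and 45 alignments behind these values. Exon 32, the last to hold more than 1 coding base, was lowest of these at 24.0, 26.3 and 38.8. Exon 31 beside it had 101, 113 and 120, and was the exon with the smallest variation between litters, at 8.59%.

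Towards the 5′ end the start density became lower, mostly exon by exon. These exons encode the amino-terminal end with the kinase domain. Exon 9 had 330, 186 and 604, and exon 8 had 303, 168 and 539. Exon 5 had 89.6, 33.8 and 198, and exon 4 had 46.1, 10.1 and 68.6. Exons 2 and 3 rested on few alignments, 9, 2 and 5 for exon 2 and 10, 5 and 30 for exon 3. Exon 1, with the 5′ untranslated sequence and the start codon, was lowest of all by its mean, at 12.7, 0.658 and 13.0. The mean of exon 15 was 111 times that of exon 1.

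**Figure D4:**
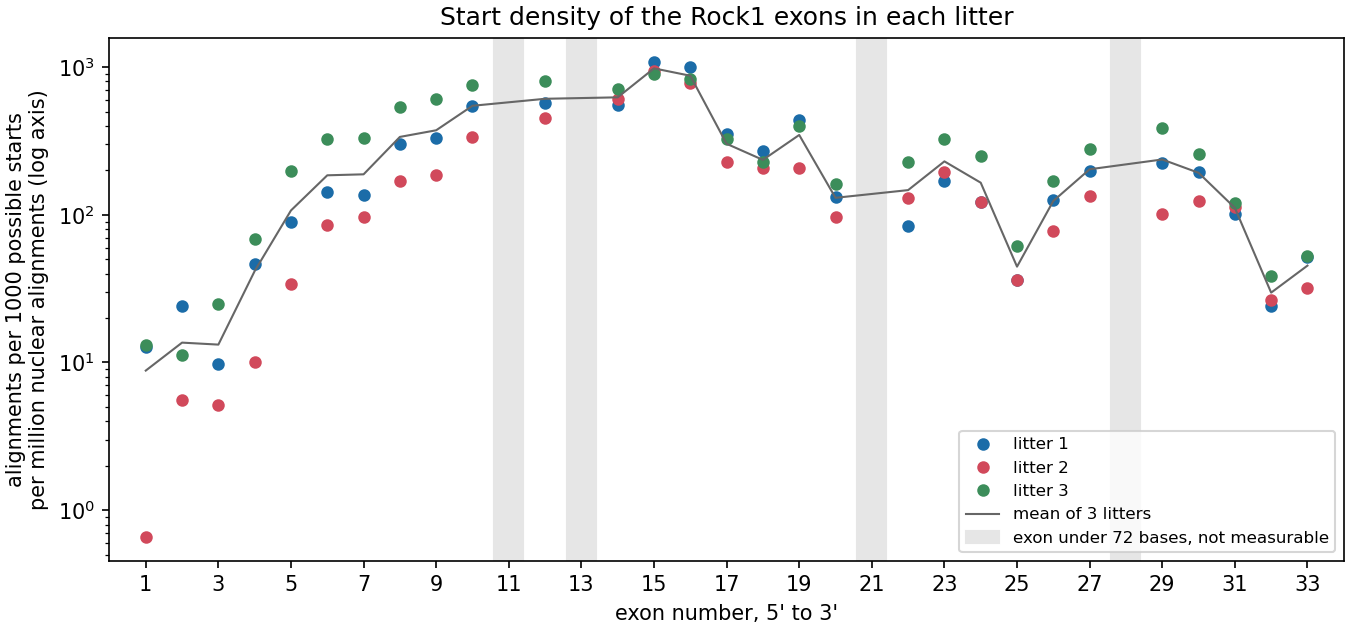
Start density of the Rock1 exons on a log axis (alignments per 1000 possible starts per 1000000 nuclear alignments) against exon number, with a point for each litter and a line for the mean of 3 litters. Grey bands mark the 4 exons too short to hold an alignment; the values peak at exons 15 and 16 and litter 2 is far below the others at the 5′ end.

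Grouped after their values had been seen, exons 10 to 16 held 48.4%, 53.1% and 41.9% of the alignments lying in exons, in 369 of 4130 possible start positions. Their start density was 800, 638 and 795, which is 4.66 ± 0.628 times that of exons 17 to 32 (SD, n = 3). It was 14.7, 25.4 and 7.92 times that of exons 1 to 9, and 16.9 ± 2.76 times that of exon 33. Because the groups were drawn around the peak, no test is given. Nearly all possible starts of exons 10 to 16 were in use, 99.7%, 99.5% and 100% in litters 1 to 3. A count of distinct starts can therefore not show how high the peak is. In exons 1 to 4 the share in use was 30.0%, 4.43% and 32.1%.

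The lean along the gene depended on how it was measured and where the gene was cut. By position in the span, the density on the 3′ side of the midpoint exceeded that on the 5′ side by 2.78, 3.30 and 2.02 on the log2 scale with a pseudocount of 0.1, a mean of 2.70 ± 0.644 (SD, n = 3). It was higher on the 3′ side in 3 of 3 litters, and p was 0.25 (exact permutation of signs over litters, two-sided), the smallest that 3 litters allow. Along the spliced transcript, the possible starts were split near their middle, into exons 1 to 25 and exons 26 to 33. By start density the direction then turned: the 3′ side was at -1.82, -1.90 and -1.81 relative to the 5′ side. This split was added after the values were seen, and its 3′ part is mostly exon 33, which has 1580 of the 4130 possible starts. The cuts differ. The midpoint of the span lies between exons 9 and 10, so exons 10 to 25, with the peak, changed sides. Exons 1 to 9 had start densities of 54.5, 25.2 and 100 in litters 1 to 3, under the 148, 107 and 169 of all exons. At the cut after exon 9, start density was thus also higher on the 3′ side in every litter. Outside the blocks the lean was 0.65, 1.76 and 0.26 (exact p = 0.25), a value that still holds the exons too weak to form a block. With all exons left out it was -0.41, 0.34 and -1.39 (exact p = 0.50), so the introns gave no lean that the litters shared.

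Exon 33, which ends the transcript, was covered unevenly. Between 400 and 900 bases from its annotated 3′ end it had a start density of 103, 46.1 and 116 and held 63.1%, 45.9% and 69.9% of the exon's alignments. In the last 400 bases the start density was 30.6, 25.5 and 13.2. From 900 bases to the last possible start it was 26.4, 24.8 and 28.8, nearly equal in the 3 litters. A weak island just beyond the annotated 3′ end, chr18:10063846-10064391, held 44 alignments of litter 1, and 37 lay in nearly the same place in litter 2. Litter 3 had no island there, and its coverage at the middle of that place was 0.

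Exon 1 was covered at both ends and not in the middle. Within 250 bases of its 5′ end it had 137, 1 and 307 alignments in litters 1 to 3. From 250 to 500 bases it had 3, 0 and 7, and from 500 to 750 bases 185, 15 and 82. Litter 3 thus had more at the 5′ part and litter 1 more at the 3′ part. The total of 16 alignments in litter 2, against 325 and 396, shows how little of that library lay there. Alignments across the upstream edge of exon 1 numbered 28, 1 and 119 in litters 1 to 3. Upstream of the annotated start, within 200 bases, litter 3 had 72 alignments that touched no exon, against 2 in litter 1 and 0 in litter 2. A count of 0 allows up to 3 alignments by counting error alone.

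At the exon edges, how far alignments ran into the introns depended on the placement. At the one used, 951, 648 and 1477 alignments passed the 3′ edges of exons by 1 to 4 bases and 573, 429 and 925 passed the 5′ edges by as much. With the chain 3 bases lower, among the tied placements, these numbers were 743, 472 and 1217 at the 3′ edges and 967, 645 and 1486 at the 5′ edges. Which side of the Rock1 exons had more overhang could thus not be told. Overhangs of 5 to 10 bases numbered 572, 372 and 981 at the 3′ edges and 15, 14 and 31 at the 5′ edges at the placement used. With the chain 3 bases lower they numbered 130, 88 and 224 at the 3′ edges and 389, 302 and 634 at the 5′ edges. Alignments that passed a 3′ edge by more than 10 bases numbered 11, 20 and 11 at the placement used, against 0, 2 and 0 at the 5′ edges.

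Litters agreed in the order of the exons and differed most at the 5′ end. Across the 29 measurable exons, Pearson correlations of log2 start density were 0.930 between litters 1 and 2, 0.944 between 1 and 3, and 0.927 between 2 and 3. Spearman values were 0.934, 0.944 and 0.869. Exons of one RNA are not independent and share the library, so no p is given. Litter 3 was highest in 23 of the 29 exons, litter 1 in 6 and litter 2 in none. Relative to litter 1, litter 2 had 0.105 times the start density in exons 1 to 4, 0.557 times in exons 5 to 9 and 0.797 times in exons 10 to 16. Litter 3 had 1.15, 2.02 and 0.994 times in the same groups. Beyond the peak there was no steady course: litter 2 had 0.591 times in exons 17 to 19, 0.881 times in exons 20 to 32 and 0.613 times in exon 33, and litter 3 had 0.892, 1.48 and 1.01 times. The coefficient of variation was 80.2% in exon 1, 77.9% in exon 5 and 9.96% in exon 15. It was also low in exon 31, so the spread does not follow from the distance to the peak alone.

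Most Rock1 alignments shared their start with another of the same litter. Repeated starts made up 85.4%, 81.2% and 88.4% of the alignments, with 3392, 3076 and 3796 distinct starts. The exons offer few places to start, so this is no measure of duplication. Repeats also stood where many possible starts were unused. Exon 1, with 750 possible starts, had 325 alignments at 195 of them in litter 1 and 396 at 199 in litter 3. How much of the repetition came from copies made in amplification was not tested. At 11 Rock1 start positions each litter had 50 alignments or more. Of these, 0 had the same 3 litter counts at another nuclear position, against 38.8% of 22256 such positions over all nuclear sequence.

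Around the gene the density was lower. Over the 50 kb beyond the 3′ end it was 0.516, 0.263 and 0.360, and over the 50 kb beyond the 5′ end 0.490, 1.03 and 0.799. Rock1 exceeded both flanks together by 3.29, 2.55 and 3.36 on the log2 scale. The gene next to Rock1 beyond its 3′ end in the annotation is Usp14, and beyond its 5′ end lies a processed pseudogene. The flank at the 5′ end was not empty: its window from 10.19 to 10.20 Mb was at 2.13, 4.84 and 3.47, above 1 in all litters. That signal stood mainly in islands common to the 3 litters. One of these, at chr18:10196896-10197029 in litter 1 and nearly the same place in the others, held 441, 590 and 739 alignments at 46, 47 and 48 start positions. Of the 38 flank islands, counted in each litter on its own, 12 overlapped one in each other litter. A place shared by all litters counts 3 times in that number.

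Among the 10 long runs found, that of Rock1 had the most concentrated coverage. On all nuclear sequence, contigs included, 10 runs of at least 8 windows had a density of 1 or more in each litter. Over its own run, chr18:10060001-10140000, Rock1 had 12.2% of bases covered on average, the lowest of the 10, whose median was 42.8%. The most covered 5% of bases held 95.5% of its aligned bases, the highest of the 10, whose median was 73.3%. The run at chr11:60400001-60510000 came close, at 92.9%, with 37.2% of its bases covered. The mean density of the Rock1 run was 8.10, and 2 runs were lower and 7 higher. The run nearest in density, chr2:121250001-121330000 at 5.74, had 20.4% of bases covered. The next, chr6:119870001-119970000 at 12.5, had 48.3%, and chr11:86080001-86170000 at 4.69 had 26.6%. The other nearest runs, chr1:87440001-87550000 at 22.1 and a run of 16 windows on contig 1_random at 28.3, had 61.1% and 73.3%. Both runs of lower density than Rock1 had more of their bases covered.

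**Figure D5:**
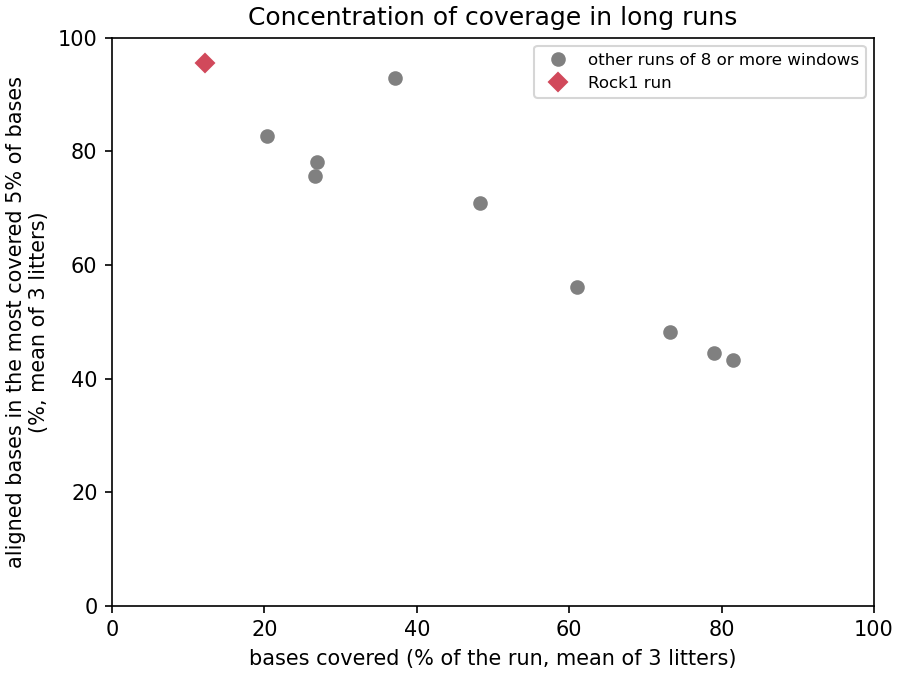
Share of bases covered against the share of aligned bases in the most covered 5% of bases, both in percent and as means of 3 litters, for the 10 runs of 8 or more windows. The Rock1 run lies at 12.2% and 95.5%, at the upper left of the other 9.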

How the data were processed

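The deposited files hold coverage (signal): the authors' unscaled count of reads over each base, written as bedGraph per the file headers. The submitters' processing notes name Bowtie and mm9. How mismatches and multiple matches were handled is not given in the sources used here. Nuclear coverage was resolved without remainder into 72-base ungapped alignments. Density is alignments per kb per 1000000 nuclear alignments, and ratios use a pseudocount of 0.1 on the log2 scale. Resolving and block calling were tested on simulated data. Placement was tested there only in a simpler form, over shifts close to the planted position and with exon alignments lying wholly in exons. That form tests neither the search over the chromosome nor the choice among tied placements. Exon lengths and distances were taken from GENCODE M21, an annotation of GRCm38 whose coordinates were not used. Rock1, its blocks, exon groups and comparisons were chosen with earlier results of these data known. Named items were every window, the highest, longest and outermost blocks, the 2 longest stretches without a block and the 5 runs nearest in mean log2 density. Exons, introns and islands were named after their values were seen. Values are means with SD over 3 litters, and p-values come from two-sided exact permutation of signs. Alternatives were the scaling, thresholds, window size, distinct starts, pseudocount, block rule and leaving out each litter. Other genes and markers were not analysed here. Tools were Python 3.11.15 with numpy 2.4.6, pandas 2.3.3 and scipy 1.17.1, and figures were drawn in matplotlib 3.10.9.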

Additional observations from a re-analysis of the deposited data

How the results depend on the processing

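Of 55 alternative values for 9 results, 40 stayed within the spread between litters or within 1.5 times a count, 13 moved and 2 turned direction. Counting distinct starts gave a Rock1 density of 2.80, 60.0% of aligned bases in blocks and a density outside blocks of 1.15. The density outside blocks was 0.739 as reported. Blocks at 3 times the mean held 91.7% with 0.486 outside, blocks at 10 times held 79.1% with 1.23 outside, and exons placed by coverage, added after seeing the data, held 97.3% with 0.162 outside. Leaving out each litter in turn gave 88.3% to 89.3% in blocks, since other blocks are called with fewer litters. Against the 3′ flank alone the gene was higher by 3.59 on the log2 scale, and with a pseudocount of 1 by 2.06 against both. The lean along the gene turned to -1.84 along the spliced transcript, cut after exon 25 where the span was cut after exon 9. The lean outside blocks turned to -0.49 with exons left out. Both were added after seeing the data, and the cause was not tested. The spread between litters was computed in 1 way only. The windows at 1 or more numbered 8 to 9 and the blocks 20 to 22 without each litter. No paired analysis was possible because there is 1 group. Depth limits exons 2 and 3 and, in litter 2, exon 1, which rest on few alignments.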
